A study of Mus musculus with 16 samples.

Results

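The cytochrome P450 genes of mouse glomerular preparations are described here across 16 libraries of RNA sequencing. Members are the gene symbols that start with Cyp, follow the family number, subfamily letter and gene number of this superfamily, and reach at least 0.5 FPKM (a read count scaled to the length of the transcript and the size of the library) in at least 7 of the 16 libraries. The members were thus chosen by name and on their measured FPKM level, which used all 16 libraries without regard to group. Of 25791 symbols in the deposited table, 93 have such a name and 35 reach that level. Cyp51 has no subfamily letter and was left out. All animals were of the genotype written eNOS-/-//db/db, which combines loss of endothelial nitric oxide synthase with the db allele of the leptin receptor, and this cross serves to model the kidney disease of diabetes. Untreated mice gave 9 libraries (replicates 0 to 8). Mice given lisinopril at 20 mg/day with losartan at 30 mg/day gave 7 (replicates 0 to 6) and are called RAAS-blocked, since both drugs interrupt the renin-angiotensin-aldosterone system (RAAS). The drugs were in the drinking water, starting at 10 to 12 weeks of age and ending at 26 weeks. These ages were recorded for the RAAS-blocked libraries only, so whether the groups matched in age is not known here. Both groups carry the same mutations, and mice without them were not analysed here. The labels do not tie each library to a mouse of its own, so a p-value measures the spread between libraries.

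Cytochrome P450 enzymes carry a heme group and insert oxygen into fats, steroids, vitamins and foreign compounds, using electrons passed on by NADPH-cytochrome P450 reductase in the endoplasmic reticulum or by ferredoxin in mitochondria. In kidney the family is best known for turning arachidonic acid into epoxides (subfamilies 2c and 2j) and hydroxylated products (subfamily 4a) that act on vessel tone and salt transport, and for making and breaking down active vitamin D (Cyp27b1 and Cyp24a1). Much of this is placed in the proximal tubule, a neighbour of the glomerulus and no part of it. Retinoic acid is cleared by Cyp26a1 and Cyp26b1, and several other members act on sterols.

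The glomerular label was matched by podocyte markers. Nphs1 (nephrin) lay between 181 and 470 FPKM, and 11 of 12 podocyte markers were at the level needed for testing, while Podxl was listed at 0 in all libraries. Slc34a1 encodes a phosphate transporter found in the proximal tubule. It ranged over 93.3-fold, from 2.59 FPKM in RAAS-blocked replicate 6 to 241 FPKM in untreated replicate 1. Untreated replicate 4 was close to that top value at 237 FPKM, and the highest RAAS-blocked library was replicate 5 at 182 FPKM. The summed level of 17 convoluted proximal tubule markers ran from 87.3 to 2102 FPKM in untreated and from 35.5 to 1291 FPKM in RAAS-blocked libraries. RNA of later tubule segments was abundant too. Umod (uromodulin, of the thick limb) lay between 107 and 1168 FPKM. The summed level of 10 distal tubule and collecting duct markers ran from 502 to 2432.5 FPKM in untreated and from 401 to 1936 FPKM in RAAS-blocked libraries. RAAS-blocked replicate 4 had the fewest symbols above 0 of all libraries, 16919, against 17993 to 18613 in the others. The table holds no counts, so depth is unknown.

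P450 genes covered a wide span of levels. Cyp4b1, a family 4 enzyme that hydroxylates medium-chain fatty acids and activates some toxins, was the most abundant, with a lowest, median and highest value of 156, 291 and 353 FPKM in untreated and 171, 230 and 284 FPKM in RAAS-blocked libraries. Cyp26b1, which clears retinoic acid, came next at 36.6, 80.1 and 508 FPKM in untreated and 15.1, 77.2 and 97.2 FPKM in RAAS-blocked libraries. The retinoid gene thus spread far more than Cyp4b1, through 508 FPKM in untreated replicate 0, 417 FPKM in replicate 7 and 174 FPKM in replicate 8. Cyp20a1, an enzyme with no settled substrate, was the steadiest of the abundant members, between 32.1 and 57.1 FPKM over all 16 libraries. FPKM is a value per transcript length, so these levels can be set beside each other. In mean level 17 members were at 10 FPKM or more and 4 were under 1 FPKM.

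By role, 10 members belong to family 4 (fatty acid hydroxylases and relatives), 6 to subfamilies 2c and 2j, 8 to families that act mainly on foreign compounds and steroids (1, 2a, 2d and 2e), 4 to vitamin D and retinoid metabolism, 4 to sterol metabolism and 3 to none of these. At the level needed were 20 members in all 16 libraries and 3 (Cyp2d12, Cyp2a4 and Cyp4a32) in exactly 7. The 7th highest value was 0.526 FPKM for Cyp2d12 and 0.536 FPKM for Cyp2a4, just inside the rule, and 0.385 FPKM for Cyp3a13 and 0.339 FPKM for Cyp17a1, just outside it. Of the 58 other symbols of the family, 13 were listed at 0 in every library and 45 were above 0 in at least 1. Only 4 of those 58 reached 0.5 FPKM in any library. They were Cyp1a1 (4 libraries, up to 5.22 FPKM in untreated replicate 3), Cyp3a13 (2), Cyp2f2 (1) and Cyp17a1 (1). Of the P450 genes that make adrenal steroids, Cyp11b1 was listed at 0 throughout, Cyp11b2 reached 0.0292 FPKM, Cyp21a1 0.1055 FPKM, Cyp11a1 0.497 FPKM and Cyp17a1 0.5095 FPKM.

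**Figure D1:**
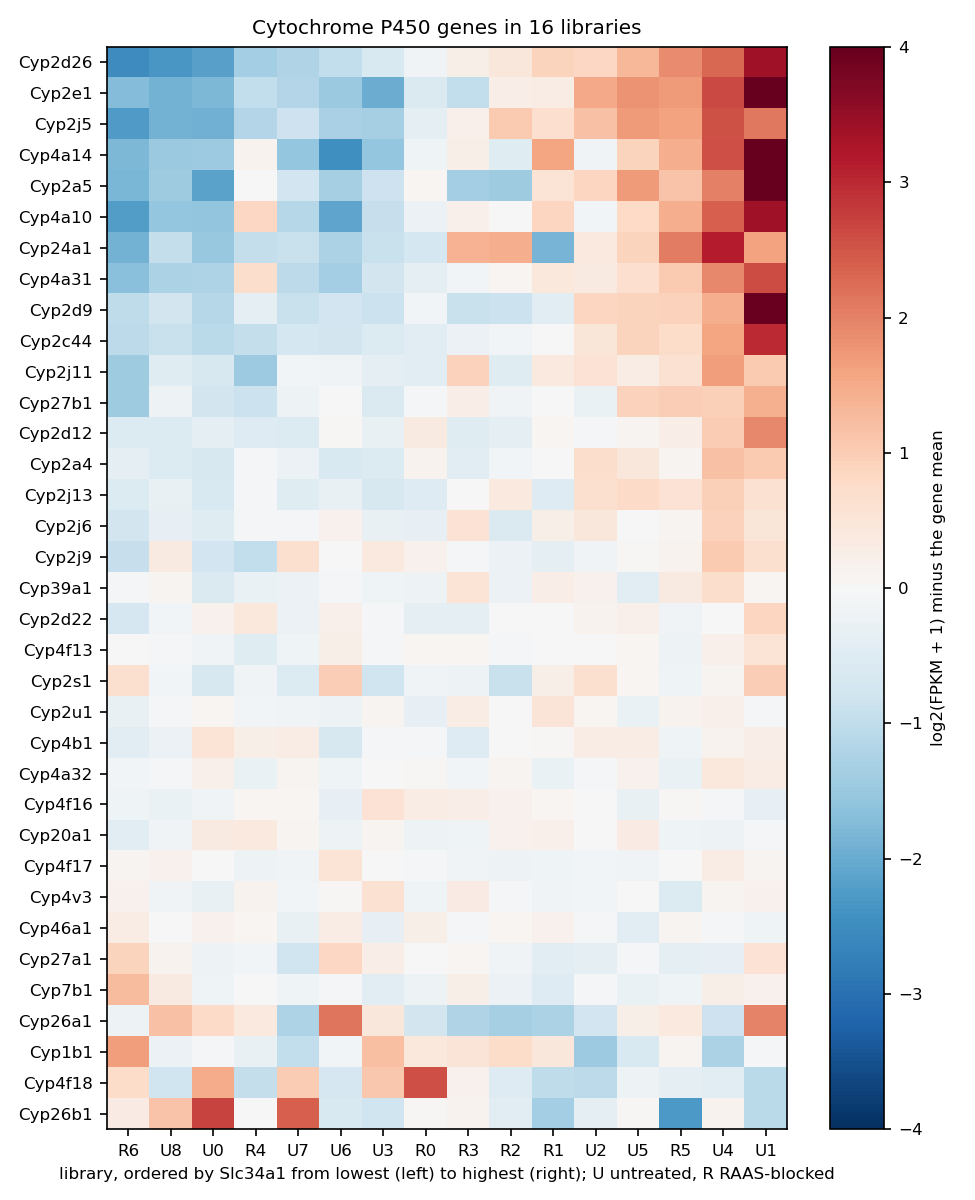
Level of each of the 35 P450 genes (rows) in each library (columns), as log2(FPKM + 1) minus the mean of the gene, with libraries ordered from the lowest to the highest Slc34a1. U marks untreated and R RAAS-blocked replicates, and differences beyond 4 are drawn in the end colour. The upper rows run from blue at the left (R6, 2.59 FPKM of Slc34a1) to red at the right (U1, 241 FPKM), and most of the lower rows do not.

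The relation of the family to proximal tubule content was read from a fit over all libraries with group and log2(Slc34a1 FPKM + 1) as terms. The slope is the change of a gene in log2(FPKM + 1) per unit of that Slc34a1 level. In this fit 16 of 35 members (45.7%) rose with Slc34a1, against 7.29% of the 14362 genes tested, and 1 member (Cyp26b1) fell with it, against 2.07%. The 0.5 FPKM rule was applied to all of these genes. Cyp2a4 (7 libraries) and Cyp2c44 (9) reached 0.5 FPKM only in libraries with at least 40.7 FPKM of Slc34a1. Cyp2d9, Cyp2d12 and Cyp2j13 did so mostly in such libraries. The rise of these members was thus in part set by the rule that chose them. Slopes were positive for 26 members and negative for 9, with a median of 0.09 over members and -0.01 over all genes tested. All calls are limma adjusted p-values under 0.05, adjusted over all genes. In bulk RNA fewer cells of a type and less RNA per cell cannot be told apart. In the library with the least Slc34a1 (RAAS-blocked replicate 6) the 16 rising members added up to 12.9 FPKM, 2.35% of the summed FPKM of the 35 members. In the library with the most (untreated replicate 1) they added up to 759 FPKM, 56.7%. In untreated replicate 4, with nearly as much Slc34a1 as replicate 1, they added up to 337 FPKM, 39.9%. Their share was lowest in untreated replicate 0, at 1.76%. The 16 were chosen by their slope in these same libraries, so a contrast between the ends was fixed in advance and is a description only.

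Cyp2d26, a hydroxylase of subfamily 2d, followed Slc34a1 most closely. Its lowest, median and highest values were 0.567, 4.15 and 81.3 FPKM in untreated and 0.390, 8.23 and 28.6 FPKM in RAAS-blocked libraries, and the groups overlapped over most of this range. The slope was 0.91 ± 0.05 (SE, limma adjusted p = 4.2e-08). Pearson's r with Slc34a1 over 16 libraries was 0.97 and Spearman's rho 0.997, both with a permutation p of 1e-05, the smallest that 100000 resamples can give. Without the 2 libraries farthest from the median of Slc34a1 on the log2 scale (RAAS-blocked replicate 6 and untreated replicate 8) r was 0.97. Within the untreated group it was 0.98 and within the RAAS-blocked group 0.99. Correlations were computed for 385 pairs of a member and a marker level, and only p-values of the fit over all genes were used for calls.

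Cyp2j5, an arachidonic acid epoxygenase known from the proximal tubule, was the next closest. It lay at 0.839, 2.86 and 39.5 FPKM (lowest, median, highest) in untreated and 0.429, 6.87 and 20.0 FPKM in RAAS-blocked libraries, with a slope of 0.82 ± 0.06 (limma adjusted p = 4.8e-07). Its r was 0.96 (permutation p = 1e-05, rho 0.96), 0.96 without the same 2 libraries, 0.96 within the untreated and 0.99 within the RAAS-blocked group. Cyp27b1, which makes active vitamin D, came after it. The values of Cyp27b1 were low, at 0.879, 1.71 and 7.29 FPKM in untreated and 0.147, 1.95 and 5.12 FPKM in RAAS-blocked libraries, with a slope of 0.36 ± 0.05 (limma adjusted p = 0.00018). Its r was 0.88 (permutation p = 2e-05, rho 0.82), 0.88 without the same 2 libraries, 0.84 within the untreated and 0.95 within the RAAS-blocked group. All 16 rising members had a positive r within each group taken alone.

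The start regions of these 3 genes are printed because they moved together most closely with Slc34a1, and that of Cyp26b1, chosen after its values were seen, because it moved the other way. Each runs from 250 bases before to 50 bases after the transcript start, 5′ to 3′ on the gene's strand, as given by RefSeq for the mouse build GRCm38.p6. Capitals mark the 6 letters AGGTCA, the core of sites for nuclear receptors such as HNF4 and PPAR, read on either strand. Cyp2d26 lies at chr15:82794196-82794495 (minus strand), Cyp2j5 at chr4:96664070-96664369 (minus), Cyp27b1 at chr10:127047996-127048295 (plus) and Cyp26b1 at chr6:84593761-84594060 (minus).
Cyp2d26: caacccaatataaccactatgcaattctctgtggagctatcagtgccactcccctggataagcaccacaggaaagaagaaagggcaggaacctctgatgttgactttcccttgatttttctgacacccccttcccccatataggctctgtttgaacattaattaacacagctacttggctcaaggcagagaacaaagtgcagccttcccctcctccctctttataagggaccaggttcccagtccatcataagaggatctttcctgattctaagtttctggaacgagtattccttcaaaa
Cyp2j5: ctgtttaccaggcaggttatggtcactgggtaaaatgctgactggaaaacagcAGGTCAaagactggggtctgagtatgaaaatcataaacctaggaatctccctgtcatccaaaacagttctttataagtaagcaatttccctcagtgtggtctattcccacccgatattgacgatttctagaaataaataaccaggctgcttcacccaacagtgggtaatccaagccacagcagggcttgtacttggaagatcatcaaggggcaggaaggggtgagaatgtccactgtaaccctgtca
Cyp27b1: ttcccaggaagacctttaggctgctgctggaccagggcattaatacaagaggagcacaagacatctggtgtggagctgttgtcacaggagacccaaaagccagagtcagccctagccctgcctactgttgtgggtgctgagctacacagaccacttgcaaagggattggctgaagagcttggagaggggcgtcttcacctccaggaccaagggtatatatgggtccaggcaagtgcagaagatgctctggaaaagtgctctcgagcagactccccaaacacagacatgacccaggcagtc
Cyp26b1: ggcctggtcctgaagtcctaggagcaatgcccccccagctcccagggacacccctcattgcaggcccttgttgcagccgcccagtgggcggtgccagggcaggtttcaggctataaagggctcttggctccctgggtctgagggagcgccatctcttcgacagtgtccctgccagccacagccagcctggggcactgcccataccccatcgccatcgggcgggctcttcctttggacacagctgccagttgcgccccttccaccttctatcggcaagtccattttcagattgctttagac

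Cyp2j5 holds AGGTCA on the printed strand, while the windows of Cyp2d26, Cyp27b1 and Cyp26b1 do not hold it on either strand. Such a table entry was found for 24 of the 35 members, 10 of them rising with Slc34a1. AGGTCA was present in 3 of those 10 (Cyp2a4, Cyp2a5 and Cyp2j5) and in 0 of the 14 others. Cyp2a4 and Cyp2a5 are close copies, so these are not 3 separate cases. Over all 27025 symbols with a RefSeq promoter of this length, counted in the same way, 18.1% held it on either strand. The full direct repeat (AGGTCA, 1 free base and AGGTCA again), which contains this core, was in 0 of the 24 members and in 0.0481% of all symbols. A match of letters is a description of these windows only.

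Among the 6 members of subfamilies 2c and 2j, 5 rose with Slc34a1. Beside Cyp2j5 these were Cyp2c44, Cyp2j11, Cyp2j13 and Cyp2j6. Cyp2c44, an epoxygenase, was at 0.0344, 0.497 and 16.4 FPKM in untreated and 0.0459, 0.860 and 2.62 FPKM in RAAS-blocked libraries, with a slope of 0.51 ± 0.08 (limma adjusted p = 0.0004). The groups overlapped throughout, and the highest value was that of untreated replicate 1. Cyp2j11 had a slope of 0.38 ± 0.06 (limma adjusted p = 0.00046) and ran from 1.61 to 21.9 FPKM. Cyp2j6 ran from 5.93 to 20.6 FPKM, a 3.47-fold range, and had the shallowest slope called, 0.17 ± 0.05 (limma adjusted p = 0.026). The Cyp2j6 call was lost without untreated replicate 0, 1 or 4 and without RAAS-blocked replicate 6. Cyp2j9, at most 3.44 FPKM, had a slope of 0.17 ± 0.05 that did not pass (limma adjusted p = 0.071).

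Of the 10 family 4 members, the 3 that rose were neighbours in the genome. Cyp4a14, Cyp4a10, Cyp4a31, Cyp4a32 and Cyp4b1 follow each other in that order on chromosome 4 among the protein-coding genes of RefSeq. Cyp4a14, Cyp4a10 and Cyp4a31, omega-hydroxylases of fatty acids that are classic targets of the receptor PPAR alpha, had slopes of 0.77 ± 0.15, 0.71 ± 0.12 and 0.55 ± 0.09 (limma adjusted p = 0.0034, 0.0012 and 0.001). Leaving out Cyp2a4, whose lowest value was 0, Cyp4a14 had the widest range of the members, 1006-fold, from 0.110 FPKM in untreated replicate 6 to 111 FPKM in untreated replicate 1. Cyp4a10 lay at 0.557, 2.53 and 68.9 FPKM in untreated and 0.430, 6.62 and 17.3 FPKM in RAAS-blocked libraries, with an r of 0.82 (permutation p = 9e-05, rho 0.84) that was 0.77 without the same 2 libraries. RAAS-blocked replicate 4 stood above the trend for the subfamily, with 5.75 FPKM of Cyp4a14 beside 10.9 FPKM of Slc34a1. Cyp4b1, at the end of the row, had a slope of 0.03 ± 0.04 (limma adjusted p = 0.703) and Cyp4a32 one of 0.03 ± 0.03. Slopes of the Cyp4f genes and Cyp4v3 lay between -0.21 (Cyp4f18) and 0.05 (Cyp4f13). None of these 5 passed, which for so few genes is near the background (9.36% of all genes in either direction).

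In the group that acts mainly on foreign compounds and steroids 6 of 8 rose. Cyp2e1, the ethanol-inducible enzyme, had values of 1.21, 2.87 and 181 FPKM in untreated and 1.68, 4.94 and 27.5 FPKM in RAAS-blocked libraries and a slope of 0.88 ± 0.13 (limma adjusted p = 0.00038). Cyp2a5, the coumarin hydroxylase, had a slope of 0.74 ± 0.15 (limma adjusted p = 0.0051) and reached 158 FPKM in untreated replicate 1, against 22.3 FPKM in replicate 4. These libraries differed little in Slc34a1, so equal Slc34a1 did not go with equal levels of these enzymes. Cyp2d9, a male-typical steroid hydroxylase, was likewise at 35.0 FPKM in untreated replicate 1 and 5.30 FPKM in replicate 4, with a slope of 0.51 ± 0.12 (limma adjusted p = 0.014). Cyp2d12 (0.26 ± 0.06) and Cyp2a4 (0.23 ± 0.05) also rose, and the Cyp2d12 call was lost without untreated replicate 4. Without untreated replicates 1 and 4 together the calls of Cyp2a5, Cyp2d9, Cyp2d12 and Cyp2a4 were all lost. Cyp1b1 and Cyp2d22 did not pass, at -0.15 ± 0.09 and 0.07 ± 0.04 (limma adjusted p = 0.328 and 0.321).

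Both vitamin D genes rose with Slc34a1, and 1 of the retinoid genes fell. Cyp24a1, which starts the breakdown of vitamin D, rose with a slope of 0.67 ± 0.13 (limma adjusted p = 0.0036) and ran from 0.159 FPKM in RAAS-blocked replicate 6 to 36.9 FPKM in untreated replicate 4. Cyp26b1 fell with a slope of -0.43 ± 0.12 (limma adjusted p = 0.033) and an r of -0.60 (permutation p = 0.012, rho -0.60). Without RAAS-blocked replicate 6 and untreated replicate 8 this r was -0.64, and it was -0.66 within the untreated and -0.73 within the RAAS-blocked group. The Cyp26b1 call was lost without untreated replicate 0, 1 or 2 and without RAAS-blocked replicate 1 or 5, where its slope lay between -0.42 and -0.35 and the limma adjusted p between 0.052 and 0.094. Cyp26a1 had a slope of -0.10 ± 0.14 and an adjusted p of 0.712 in limma.

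Sterol genes gave 0 of 4 calls (background 9.36% of all genes in either direction), and for so few genes 0 calls is near that share. Slopes were 0.09 ± 0.04 for Cyp39a1 and -0.04 ± 0.03 for Cyp46a1, both oxysterol or cholesterol hydroxylases. They were -0.07 ± 0.06 for Cyp27a1, the mitochondrial sterol hydroxylase, and -0.10 ± 0.05 for Cyp7b1, which acts on oxysterols. The negative r of Cyp7b1 (-0.44, permutation p = 0.082, rho -0.27) and Cyp27a1 (-0.28, permutation p = 0.285, rho -0.30) rested on 2 libraries. Without RAAS-blocked replicate 6 and untreated replicate 8 r was 0.21 and 0.04. Cyp4f18 (r = -0.37, permutation p = 0.160, rho -0.38), Cyp1b1 (r = -0.36, permutation p = 0.172, rho -0.24) and Cyp46a1 (r = -0.35, permutation p = 0.188, rho -0.39) complete the 6 lowest. Without those libraries they were at -0.47, -0.16 and -0.23. Cyp20a1, Cyp2s1 and Cyp2u1 had slopes of 0.00, 0.05 and 0.05, and 0 of these 3 passed, again near the background of 9.36%.

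**Figure D2:**
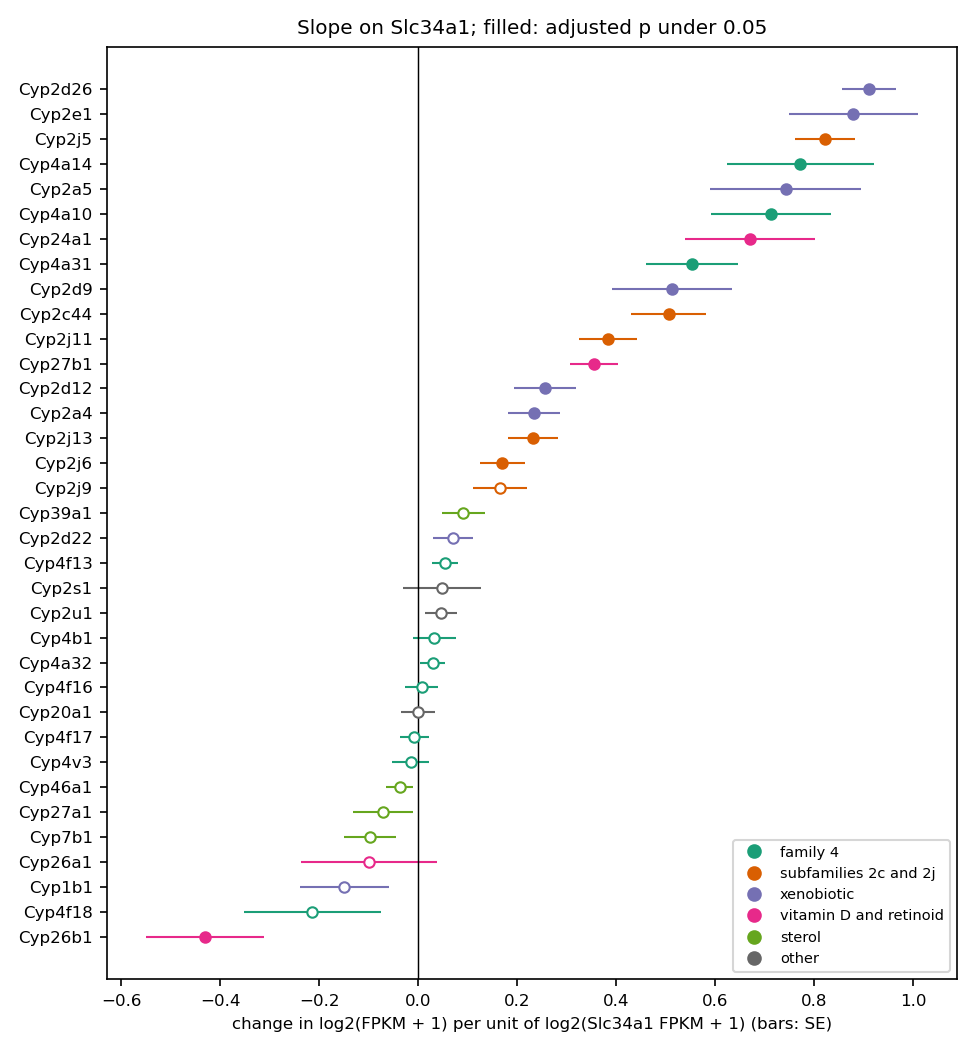
Slope of each P450 gene on Slc34a1, in log2(FPKM + 1) per unit of log2(Slc34a1 FPKM + 1), from a limma fit with group as a term (16 libraries, bars are SE, colour is the list). Filled points have an adjusted p under 0.05, and they are the 16 upward members from Cyp2d26 (0.91) to Cyp2j6 (0.17) and Cyp26b1 (-0.43) at the bottom.

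**Figure D3:**
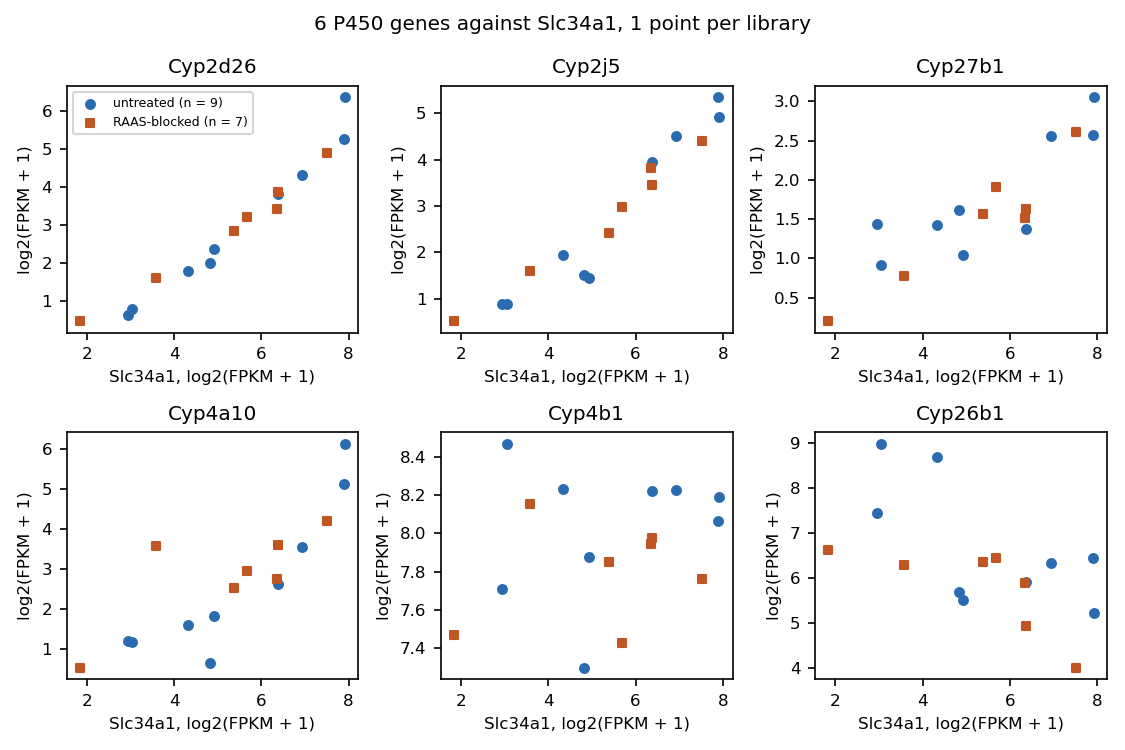
Level of 6 P450 genes against Slc34a1, both as log2(FPKM + 1), with 1 point per library (circles untreated, n = 9, squares RAAS-blocked, n = 7). Cyp2d26 (r = 0.97), Cyp2j5 (0.96), Cyp27b1 (0.88) and Cyp4a10 (0.82) climb in both groups, Cyp4b1 stays level and Cyp26b1 (-0.60) descends.

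More members passed in the untreated group taken alone than in the RAAS-blocked group. In untreated libraries alone the same 16 members rose (background 6.14% of all genes upward). In RAAS-blocked libraries alone 4 did (Cyp2d26, Cyp2j5, Cyp27b1 and Cyp2c44, background 0.849%), and the slope was positive in all 16. Without untreated replicates 1 and 4 together, an alternative added after seeing the data, 9 of the 16 passed (background 3.01%) and 16 kept a positive slope. The calls lost there were those of Cyp24a1, Cyp2a4, Cyp2a5, Cyp2d12, Cyp2d9, Cyp2j13 and Cyp2j6. Downward calls were 0 of 35 in limma in each of these fits (background 1.36% in untreated libraries alone, 0.258% in RAAS-blocked libraries alone and 0.397% in the 14 libraries). The median slope of the 16 was 0.53 in all libraries, 0.73 in untreated libraries, 0.36 in RAAS-blocked libraries and 0.38 in those 14. Values of Cyp4a14 (0.49), Cyp2d9 (0.31) and Cyp2d12 (0.13) were more than 1.5 times lower in the 14 than in all libraries. The difference in slope between the groups was tested with an interaction term. For 0 of 35 members did it pass in limma (background 0.00696% of genes, downward), and 10 members had an unadjusted p under 0.05, against 1876 of 14362 genes. The difference was negative in these 10 (RAAS-blocked minus untreated). For 7 of them the slope was positive in both groups and smaller in RAAS-blocked libraries, while Cyp2s1 (0.19 and -0.14), Cyp4v3 (0.05 and -0.10) and Cyp7b1 (0.02 and -0.25) had a positive slope in untreated and a negative one in RAAS-blocked libraries. Over all genes 908 such values were downward and 968 upward. Cyp2d26 differed by -0.28 ± 0.09 (limma adjusted p = 0.186), Cyp2e1 by -0.64 ± 0.21 (limma adjusted p = 0.212) and Cyp2c44 by -0.37 ± 0.12 (limma adjusted p = 0.216). The RAAS-blocked group did not reach the Slc34a1 levels of untreated replicates 1 and 4. Over all 35 members and all libraries the difference was positive for 9 and negative for 26, with a median of -0.09. Without those 2 untreated libraries it was positive for 15 and negative for 20, with a median of -0.02.

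RAAS blockade itself was compared next, as the difference of log2(FPKM + 1), RAAS-blocked minus untreated. No P450 gene passed the limma test over all genes (0 of 35), against 0.00696% of the 14363 genes tested, which is 1 gene, the ribosomal RNA symbol Rn18s. In 0 of 35 were the FPKM values of the groups free of overlap, against 0.0557% of those genes. At an unadjusted p under 0.05 were 4 members (Cyp1b1, Cyp4a32, Cyp2j9 and Cyp46a1), 2 with the higher mean and 2 with the lower mean after blockade, and 887 of all genes. Of these, Cyp4a32 became a member mostly through untreated libraries. Differences were positive for 10 members and negative for 25, with a median of -0.16 against -0.02 over all genes. What this split rests on was not tested. It shifted when untreated libraries rich in Slc34a1 were left out while every RAAS-blocked library was kept. Without untreated replicates 1 and 4 it was 19 positive and 16 negative with a median of 0.04, and without untreated replicate 1 alone 15 and 20.

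Cyp1b1, which oxidizes estrogens, retinoids and hydrocarbons, had the lowest p of the family. Its lowest, median and highest values were 10.2, 25.0 and 69.3 FPKM in untreated and 23.9, 40.2 and 96.1 FPKM in RAAS-blocked libraries. All but 1 of the 7 RAAS-blocked libraries exceeded 8 of the 9 untreated ones, and RAAS-blocked replicate 4 (23.9 FPKM) and untreated replicate 3 (69.3 FPKM) made the groups overlap. The difference was 0.91 ± 0.34 (limma adjusted p = 0.714), and between 0.72 and 1.12 with each library left out in turn. Markers of some other cells had differences of the same sign beside it and those of others did not, with 0 past the test. Differences were positive for 10 of 10 smooth muscle and mesangial, 5 of 5 fibroblast and 7 of 7 macrophage markers. They were negative for 10 of 10 endothelial and 10 of 11 podocyte markers. The summed fibroblast markers ran from 23.6 to 70.5 FPKM in untreated and from 48.2 to 86.8 FPKM in RAAS-blocked libraries, and the smooth muscle and mesangial ones from 221 to 706 FPKM and from 462 to 915 FPKM. In the fits on marker lists described below, slopes of Cyp1b1 were 0.19 (smooth muscle and mesangial), 0.53 (fibroblast) and 0.28 (macrophage). They were -0.81 on the endothelial and 0.98 on the podocyte list, and none of these passed in limma. The part of these cells in the Cyp1b1 difference was not tested.

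Both retinoic acid hydroxylases had lower means after blockade. Cyp26a1 was at 3.19, 12.5 and 42.6 FPKM in untreated and 2.88, 4.88 and 12.0 FPKM in RAAS-blocked libraries, a difference of -1.0 ± 0.49 (limma adjusted p = 0.812). The lower ends of the groups nearly coincided, and 5 untreated libraries lay above the highest RAAS-blocked value. For Cyp26b1 the medians were close, and its difference of -0.91 ± 0.57 (limma adjusted p = 0.863) came with untreated replicates 0, 7 and 8, which alone exceeded the highest RAAS-blocked library. Cyp2j9 was at 0.243, 1.77 and 3.44 FPKM in untreated and 0.0683, 0.821 and 1.41 FPKM in RAAS-blocked libraries (-0.56 ± 0.24, limma adjusted p = 0.781). The remaining genes with low p were Cyp4a32 (-0.23 ± 0.09), Cyp46a1 (0.23 ± 0.10), Cyp2d22 (-0.30 ± 0.16), Cyp4f16 (0.20 ± 0.12) and Cyp4f17 (-0.17 ± 0.10), with limma adjusted p-values from 0.749 to 0.852. All values of Cyp4a32 were low, between 0.2365 and 0.992 FPKM. It reached 0.5 FPKM in untreated replicates 0, 1, 4, 5 and 7 and in RAAS-blocked replicates 0 and 2. Cyp4a32 was thus a member mostly through the group where it was higher, and its difference is a description only.

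**Figure D4:**
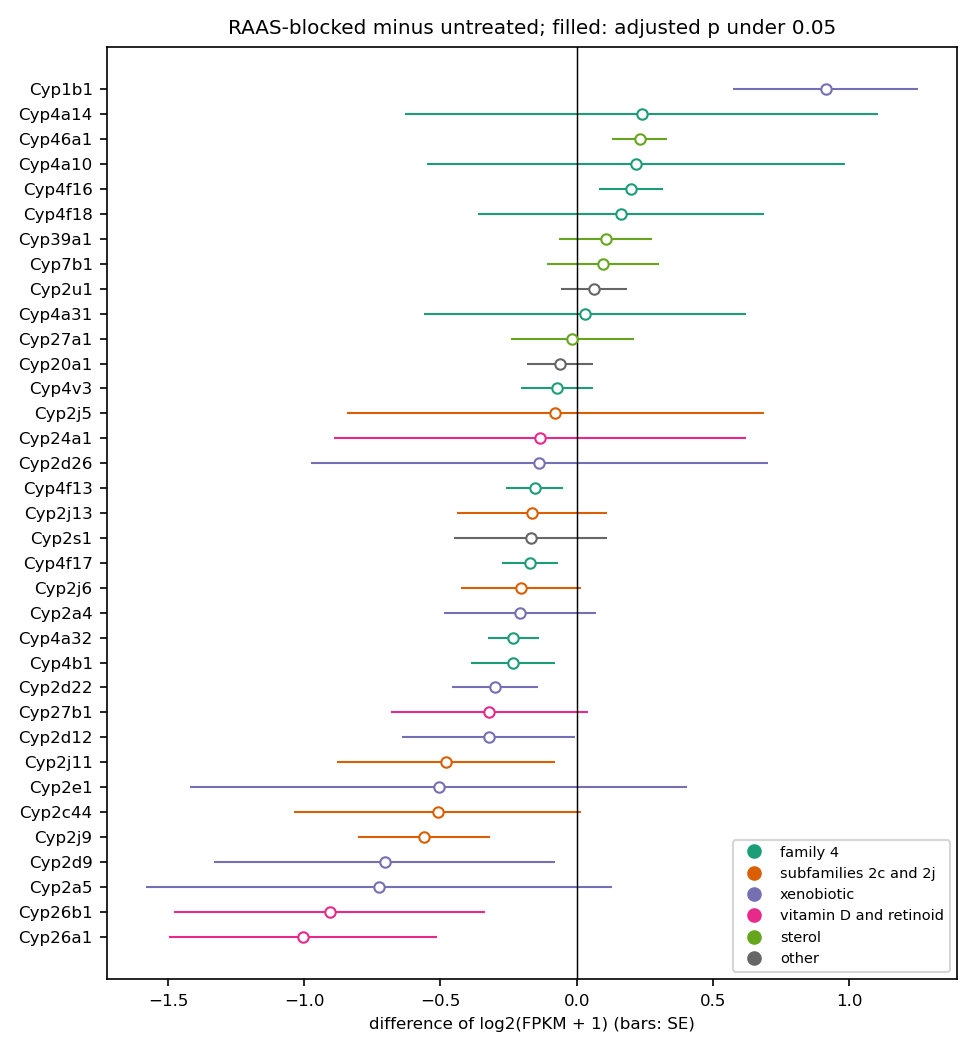
Difference of each P450 gene between RAAS-blocked and untreated libraries in log2(FPKM + 1) (limma, bars are SE, n = 7 and 9, colour is the list). All points are open because none passed, and the bars are widest for genes that moved with Slc34a1, such as Cyp2d26 and Cyp2e1, and narrow for Cyp46a1 and Cyp4f17.

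**Figure D5:**
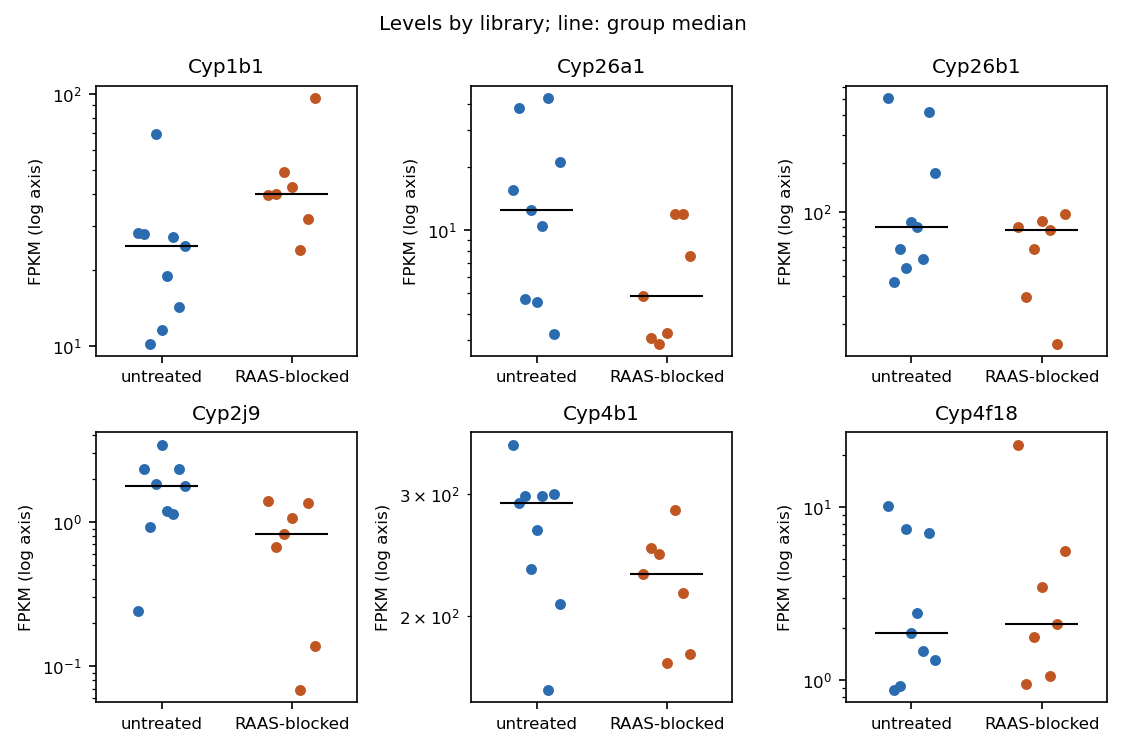
FPKM of 6 P450 genes in each library on log axes, with a line at the group median (9 untreated, 7 RAAS-blocked). The groups overlap in all 6, with Cyp1b1 medians of 25.0 and 40.2 FPKM and Cyp26b1 medians of 80.1 and 77.2 FPKM.

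At equal Slc34a1 the group difference again gave 0 of 35 calls in limma (background 0.00696%), with 5 members at an unadjusted p under 0.05 against 1036 of all genes. With the Slc34a1 term the difference of Cyp2d26 went from -0.14 ± 0.84 to 0.06 ± 0.20. That of Cyp2j5 went from -0.08 ± 0.77 to 0.10 ± 0.22. For Cyp1b1 it was 0.88 ± 0.32 (limma adjusted p = 0.601), for Cyp26b1 -1.0 ± 0.43 (limma adjusted p = 0.656) and for Cyp2j9 -0.52 ± 0.20 (limma adjusted p = 0.603). Positive differences numbered 13 and negative ones 22, with a median of -0.14.

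All 35 members, also those called on Slc34a1, were set beside marker lists of other cells and tubule segments, in fits added after seeing the data. Each replaced Slc34a1 by the mean log2 level of a list. Cyp4b1 rose with the endothelial list (slope 0.71 ± 0.16, limma adjusted p = 0.0075), and so did Cyp20a1 (0.57 ± 0.12, limma adjusted p = 0.0049). These are 2 of 35 members, against 9.76% of all genes, and 4 of 35 (Cyp27a1, Cyp2s1, Cyp4f13 and Cyp4f17) fell with it, against 10%. Cyp27a1 rose with the podocyte list (1.18 ± 0.14, limma adjusted p = 9.8e-05), the 1 member of 35 to do so (background 4.79%), and Cyp4b1 fell with it (1 of 35, background 2.13%). Cyp27a1 was highest in RAAS-blocked replicate 6 (43.2 FPKM) and untreated replicate 6 (41.0 FPKM). These libraries also had the highest Nphs1, 470 and 433 FPKM.

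Cyp39a1 rose with distal tubule and collecting duct markers (0.39 ± 0.05, limma adjusted p = 7.1e-05), among 8 of 35 members that did so (background 16.2%), and Cyp20a1 fell with them (1 of 35, background 9.4%). Cyp2j6 rose with thick ascending limb markers (0.52 ± 0.06, limma adjusted p = 1.6e-05), among 15 of 35 members that did so (background 13.5%), while Cyp26b1 fell (1 of 35, background 5.52%). Tubule markers moved together: Umod (uromodulin, of the thick limb) and Slc34a1 had an r of 0.76 (permutation p = 0.00085, rho 0.72), 0.84 within untreated and 0.74 within RAAS-blocked libraries. Their separate parts in these slopes were not tested. Markers of the straight proximal tubule gave the same count as Slc34a1, 16 of 35 upward (background 9.46%) and 0 downward (background 2.47%). Cyp4f16 rose with the macrophage list (0.19 ± 0.03, limma adjusted p = 0.0025, 1 of 35, background 3.65%), and without untreated replicate 3 the slope was 0.14 with an adjusted p of 0.304 in limma. The smooth muscle and mesangial list (background 1.29% upward and 0.0348% downward) and the fibroblast list (background 0%) had 0 of 35 calls in limma.

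Genes that serve the P450 enzymes were read from lists of electron donors, heme synthesis and turnover, epoxide hydrolases and regulators. None of the 8 tested electron donor genes passed the slope test on Slc34a1 (0 of 8, background 9.36% of all genes in either direction). For so few genes 0 calls is near that share. Fdxr, which reduces ferredoxin, had 0.11 ± 0.04 (limma adjusted p = 0.068), Cyb5b 0.05 ± 0.02 (0.193) and Fdx1 0.07 ± 0.04 (0.240). Por, the reductase that feeds all enzymes of the endoplasmic reticulum, had 0.05 ± 0.04 and stayed between 25.5 and 58.8 FPKM. Of 13 heme genes 4 rose (Alas1, Cpox, Hmox2 and Urod, background 7.29% upward). They were led by Alas1, the rate-limiting step of heme synthesis, with 0.15 ± 0.03 (limma adjusted p = 0.0052). These slopes are shallow beside those of Cyp2d26 or Cyp2j5.

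Among 3 epoxide hydrolases 1 rose (background 7.29% of all genes). This was Ephx2, which opens the epoxides made by subfamilies 2c and 2j, with 0.45 ± 0.06 (limma adjusted p = 0.0002). Ephx1 and Ephx3 did not pass (0.01 and -0.03). Of 16 regulators 5 rose (background 7.29%) and 1 fell (background 2.07%). The nuclear receptor gene Hnf4a rose by 0.66 ± 0.06 (limma adjusted p = 4.6e-06), Ppara by 0.32 ± 0.04 (limma adjusted p = 2.6e-05) and the bile acid receptor gene Nr1h4 by 0.48 ± 0.07 (limma adjusted p = 0.00027). The others upward were Vdr and Nr0b2, and the retinoic acid receptor gene Rarb fell (-0.17 ± 0.05, limma adjusted p = 0.030), as did Cyp26b1. Hnf4a is also on the convoluted proximal tubule list, of which 16 of 16 tested genes other than Slc34a1 rose. Ahr, the receptor through which hydrocarbons induce Cyp1b1, had a slope of -0.01 ± 0.04. Between the groups 0 genes of any of these 4 lists passed in limma (background 0.00696%).

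The genes most like the mean log2 level of the 16 rising members, by Pearson's r over 16 libraries and outside the family, were Papss2 (0.99), AI314278 (0.99), Upb1 (0.99), Acaa1b (0.99) and Aass (0.99). They share library and tubule content with the members, and r is a description. For single genes, chosen after seeing the values, symbols starting with Gm, LOC, AI, BC or a digit or ending in Rik were left out, unlike above. Among the remaining symbols the closest was Kdr for Cyp4b1 (0.90), Cd24a for Cyp26b1 (0.93), Tusc5 for Cyp1b1 (0.92), Jarid2 for Cyp26a1 (0.88) and Csf3r for Cyp4f18 (0.98). Cyp4f18, which inactivates a leukotriene in white blood cells, was at 22.9 FPKM in RAAS-blocked replicate 0 and at 0.874 to 10.1 FPKM in the other 15 libraries.

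Some members cannot be told apart with confidence, since close copies share sequence. Of all 50-base stretches of the longest protein-coding Cyp4a32 transcript in the GENCODE annotation, 46.8% also occurred in another gene, 34.8% in Cyp4a10. The share was 40.8% for Cyp2a5, 38.0% for Cyp2a4, 30.5% for Cyp4a10, 29.0% for Cyp2d9, 26.5% for Cyp4f16, 21.8% for Cyp4a31 and 17.9% for Cyp2d12. Values of these 8 genes are uncertain, because how shared fragments were divided is not given in the sources used here. The share of stretches does not give the size of that uncertainty. For Cyp2c44 no transcript was found under this symbol, so its shared sequence could not be checked. Cyp27b1, Cyp24a1, Cyp26a1, Cyp26b1, Cyp27a1, Cyp1b1 and Cyp39a1 shared 0%, Cyp2j5 0.174% and Cyp2d26 10.5%.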

How the data were processed

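The values used are FPKM as deposited, 1 column per library and 1 row per gene symbol, which the authors had normalized for transcript length and mapped fragments. Cuffdiff 2.2.1, Cufflinks, TopHat2 2.0.8, CASAVA 1.8.2 and FastQC are named, without roles, per the submitters' processing notes. Genome build, annotation and use of strand were not given in the sources used here. Overlapping or antisense genes can therefore not be told apart, and a gene listed at 0 may be a failed estimate. RNA came from glomeruli isolated with iron and magnets, and libraries were made with a TruSeq mRNA kit, per the labels' protocols. No pair of libraries was identical (0 pairs).

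Values were tested as log2(FPKM + 1) in R 4.3.3 with limma 3.58.1 (mean trend, robust), over the 14363 genes that reached 0.5 FPKM in 7 or more libraries, two-sided, with Benjamini-Hochberg adjustment over all genes at 0.05. Because 1 is added, differences of genes with low values are compressed. Terms were group, or group with log2(Slc34a1 FPKM + 1), or both with their interaction. Correlations used 100000 permutations. The fits were checked on simulated data. The members, lists and tests were chosen with earlier results of these data known, and the low-value rule that chose members is the filter of the test, so the 35 are not all P450 genes. Named genes were the 8 of lowest p between groups, the 8 highest and 6 lowest r with Slc34a1, up to 4 of highest mean level per list, up to 3 of lowest slope p per related list and the 5 most like genes. One planned related gene and one planned motif are not reported here. Genes named beyond this were added to describe a list, a count or a library. Replicate numbers did not pair the libraries across groups. Alternatives were the pseudocount, the filter, scaling, array weights, a replicate block, other marker levels, each group alone and each library left out.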

Additional observations from a re-analysis of the deposited data

Results flagged for a closer look

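In 5 of 70 sets (35 genes in 2 groups) 1 library stood apart from the rest of its group by Dixon's ratio on the log2 scale, where chance gives about 5%. Cyp27a1 was at 43.2 FPKM in RAAS-blocked replicate 6 against 16.5 to 24.3 FPKM in the others of that group, and Cyp7b1 in the same library at 4.86 FPKM against 0.703 to 1.85 FPKM. This library had the lowest Slc34a1 and the highest Nphs1 of all 16. Cyp4f16 was at 11.6 FPKM in untreated replicate 3 against 5.65 to 7.90 FPKM, and Cyp4v3 in that library at 15.5 FPKM against 7.86 to 11.1 FPKM. Cyp2d22 was at 32.0 FPKM in untreated replicate 1, which had the highest Slc34a1, against 14.6 to 20.1 FPKM.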

How the results depend on the processing

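The absence of group calls (0 of 35) held under every alternative run, and the 8 genes of lowest p kept their direction in all of them. The count of upward slopes was 16 in most settings, 12 of 30 tested with a 1 FPKM filter, 14 to 17 with each library left out, 4 in RAAS-blocked libraries alone and 9 in the 14 libraries without untreated replicates 1 and 4. Slope calls in both directions were then 15 to 18, 4 and 9. The downward call (Cyp26b1) went to 0 with no filter, with the convoluted proximal tubule list or Umod in place of Slc34a1, in either group alone and in the 14 libraries, and it was 0 or 1 with each library left out. With Nphs1 in place of Slc34a1, 1 member passed upward (Cyp27a1) and 2 in all. On Nphs1 the slopes were -1.37 for Cyp2d26, -1.45 for Cyp2j5, -0.57 for Cyp27b1, -1.13 for Cyp2e1, -0.58 for Cyp2c44, -0.68 for Cyp2j11, -1.33 for Cyp4a31 and -1.94 for Cyp4a10, and 0.58 for Cyp7b1, 0.36 for Cyp4f18, 0.76 for Cyp1b1, 0.28 for Cyp46a1 and 0.86 for Cyp27a1. This is another quantity, so signs need not match. In untreated libraries alone the slopes of Cyp7b1 and Cyp27a1 turned to 0.017 and 0.022. Over all genes, group calls numbered 2 with a pseudocount of 0.1 or the 1 FPKM filter, 3 with no filter, 11 with array weights and 1 to 6 with each library left out. Slope calls over all genes were 782 to 1603 with each library left out (782 without untreated replicate 4), 2437 on Umod, 633 on Nphs1, 159 in RAAS-blocked libraries alone and 490 in the 14. The cause of these shifts was not tested.

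Replicate numbers are shared between the groups, but deviations of same-numbered libraries correlated from -0.27 to 0.42, and 1 of 7 correlated best with its own number. With a replicate block, which leaves fewer degrees of freedom, 1 member passed upward (Cyp2d26), 0 downward and 1 in all, against 24 of all genes, while 16 of 16 kept a positive slope. The block turned the slopes of Cyp4f18, Cyp46a1 and Cyp27a1 to 0.022, 0.020 and 0.0058. In limma with the block, the slopes of Cyp27a1 on the podocyte list (1.12, adjusted p = 0.504), Cyp4b1 on the endothelial list (0.57, adjusted p = 0.169) and Cyp4f16 on the macrophage list (0.13, adjusted p = 0.894) did not pass. A pseudocount of 0.1 raised slopes of low genes, such as Cyp2c44 (0.93) and Cyp2d12 (0.63).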
